A study of Mus musculus with 4 samples.

Results

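Foxp3 and 9 other genes that mark regulatory T cells were followed through 4 single-cell RNA libraries of mouse thymocytes. The 10 genes, listed by name out of 32285 in the matrices, were Foxp3, Lrrc32, Capg, Gpr83, Izumo1r, Nrp1, Hopx, Rln3, Cd83 and Ecm1. Each library held thymocytes pooled from 4 C57BL/6J mice aged 3 weeks, and the groups were knockout-labelled CD25+, WT CD25+, knockout-labelled CD25− and WT CD25−. "Knockout-labelled" stands for the genotype given as PD-1 knockout, which had 1 library per gate, as did WT. All 4 libraries had gone through depletion of CD8-bearing cells and a live sort for CD4+ HSA+ CD73− cells. CD25, the IL-2 receptor α chain, then divided the gates, of which the CD25+ gate was meant to collect regulatory T cells and their precursors. The list of stains in the protocol names CD74 where the gate names CD73, and the sources used here do not say whether 1 pool of thymi served both gates. Libraries were made with a 10x Genomics 5′ kit, which counts unique molecular identifiers (UMIs), each marking 1 captured transcript.

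Cells were classed by their own transcripts. Cd4/Trac cells held at least 1 UMI of Cd4, the coreceptor, and at least 1 of Trac, which encodes the constant part of the α chain of the mature T cell receptor. They numbered 304 of 9236 kept cells in the knockout-labelled CD25+ library, 560 of 7649 in WT CD25+, 765 of 1716 in knockout-labelled CD25− and 1100 of 2985 in WT CD25−. Ptcra cells, the background, held no Cd4 UMI and at least 1 UMI of Ptcra, which encodes the α chain of the pre-T cell receptor of early thymocytes. There were 6644 of them in the knockout-labelled CD25+ library and 4825 in WT CD25+, so most cells of the CD25+ gate were of this class. The CD25− libraries held 0 and 2 Ptcra cells, too few for a background. Cells with a Cd4 or a Trac UMI but not both, and with no Ptcra or Rag1 UMI, were read as separate cells of the same libraries. They numbered 523, 795, 717 and 1206 in knockout-labelled CD25+, WT CD25+, knockout-labelled CD25− and WT CD25−, and are called Cd4-or-Trac cells below.

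Pdcd1, which encodes PD-1 and is the targeted gene, was at 66.6 CPM (its UMIs relative to all UMIs of the class) in knockout-labelled CD25+ Cd4/Trac cells against 39.1 CPM in WT CD25+. Cd4/Trac cells of the CD25− gate held 28.4 CPM of it in knockout-labelled and 15.8 CPM in WT. It was not lower in either knockout-labelled library, and because 5′ reads may lie outside a deletion whose position the labels do not give, these levels check neither label. Il2ra, the gene of the sorted antigen, was at 177 and 175 CPM in knockout-labelled and WT CD25+ Cd4/Trac cells, and at 3.91 and 1.44 CPM in those of the CD25− gate. All 7 markers of CD4 single-positive T cells were detected in the Cd4/Trac cells of each library. Deposited libraries held 79599075, 59893295, 13015103 and 16140652 UMIs in the order knockout-labelled CD25+, WT CD25+, knockout-labelled CD25− and WT CD25−, and kept cells shared 0.233% to 1.34% of their barcodes between libraries. Gm42418, a transcript read as a sign of RNA quality, was at 4415 and 5531 CPM in CD25+ Cd4/Trac cells and at 14892 and 25455 CPM in CD25− ones (knockout-labelled, then WT), and its part in the gate differences was not tested. With 1 library per group no p-value is given. Intervals are 95% and cover counting error only, so they say nothing of the spread between animals or libraries. Those of levels and ratios treat each UMI as a separate draw and also leave out the spread between cells. They are too narrow where a few cells hold most UMIs of a gene.

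Foxp3 is the transcription factor that fixes the regulatory T cell lineage, and thymocytes that receive strong T cell receptor and IL-2 signals switch it on. Regulatory T cells made in the thymus restrain responses to the body's own tissues. The other genes listed here are known for higher transcript levels in regulatory T cells than in other CD4 T cells, although several are also used elsewhere: Capg, Nrp1 and Cd83 in dendritic cells, Rln3 in the brain.

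The 10 genes lie on 8 chromosomes, and sequence before a transcription start was available for 8 of them at 10 starts (RefSeq, GRCm38.p6). The letters of 5 motifs were searched for in the 250 bases before each start on both strands: forkhead TGTTTAC, Runx TGTGGT, STAT TTCNNNGAA, AP-1 TGANTCA and the TATA box TATAAA. No window held the forkhead letters, which 3.17% of all 32851 promoter windows of that length held. The sequences below are those of Foxp3, at both its listed starts, and of 3 genes whose levels separated Foxp3-positive cells best or that held a motif; each is printed 5′ to 3′ on the gene's strand up to the first base annotated as UTR or coding. All 250 bases of both Foxp3 windows lie in annotated exons, while those of Hopx and Ecm1 shown here hold 0 exon bases. Capitals mark the motif matches.
Foxp3, first start, chrX:7579426-7579566, plus strand: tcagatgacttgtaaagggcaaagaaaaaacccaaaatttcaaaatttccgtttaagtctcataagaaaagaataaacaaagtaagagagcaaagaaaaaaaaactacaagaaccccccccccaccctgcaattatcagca
Foxp3, second start, chrX:7580233-7580482, plus strand: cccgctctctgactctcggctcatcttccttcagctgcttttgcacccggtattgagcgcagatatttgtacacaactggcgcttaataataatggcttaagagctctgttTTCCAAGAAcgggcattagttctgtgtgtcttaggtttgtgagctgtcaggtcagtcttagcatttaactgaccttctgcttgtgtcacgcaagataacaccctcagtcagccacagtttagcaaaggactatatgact
Hopx, first start, chr5:77115124-77115373, minus strand: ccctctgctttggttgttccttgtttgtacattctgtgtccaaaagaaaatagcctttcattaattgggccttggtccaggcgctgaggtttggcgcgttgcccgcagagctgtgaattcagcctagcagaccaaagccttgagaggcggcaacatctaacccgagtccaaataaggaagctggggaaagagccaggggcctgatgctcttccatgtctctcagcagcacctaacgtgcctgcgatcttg
Rln3, chr8:84045001-84045229, minus strand: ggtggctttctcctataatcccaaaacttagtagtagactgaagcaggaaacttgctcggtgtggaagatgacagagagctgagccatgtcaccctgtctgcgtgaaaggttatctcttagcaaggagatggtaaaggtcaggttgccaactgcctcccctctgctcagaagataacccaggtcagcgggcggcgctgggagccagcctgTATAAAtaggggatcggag
Ecm1, chr3:95739570-95739819, minus strand: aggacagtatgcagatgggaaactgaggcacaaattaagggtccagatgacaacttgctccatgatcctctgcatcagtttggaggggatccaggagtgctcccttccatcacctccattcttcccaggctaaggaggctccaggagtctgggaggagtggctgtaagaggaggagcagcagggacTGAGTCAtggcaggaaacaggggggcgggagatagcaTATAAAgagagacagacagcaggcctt
The window before the second Foxp3 start held the STAT letters, as did 7.02% of all windows. Rln3 held the TATA letters, present in 12.4% of windows, and Ecm1 held both the TATA letters and the AP-1 letters, the last of which were in 6.75%. The window before the first Foxp3 start also held TATA letters, among bases that are not printed, and that of Izumo1r held the Runx letters, present in 14% of windows. The Hopx window held none of the 5. A match describes letters only, and a window without one says only that those letters are not there.

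Among Cd4/Trac cells, a larger share held Foxp3 in the CD25+ than in the CD25− gate of either genotype label. In the deposited counts, 60 of 304 knockout-labelled CD25+ Cd4/Trac cells (19.7%) and 135 of 560 in WT CD25+ (24.1%) held a Foxp3 UMI, against 26 of 765 (3.40%) in knockout-labelled CD25− and 21 of 1100 (1.91%) in WT CD25−. Depth differs between cells, so each was also thinned to 1500 UMIs, which left out 3 knockout-labelled CD25+ and 5 WT CD25+ Cd4/Trac cells. The share was then 10.6% (32 of 301, interval 7.39 to 14.7) in knockout-labelled CD25+, 15.0% (83 of 555, 12.1 to 18.2) in WT CD25+, 1.05% (0.455 to 2.06) in knockout-labelled CD25− and 1.03% (0.513 to 1.83) in WT CD25−. The 2 CD25+ intervals overlap each other and lie above both CD25− ones. In Ptcra cells the thinned share was 0.213% in knockout-labelled CD25+ and 0.167% in WT CD25+, with median depths of 6005.5 and 6078 UMIs beside 6675 and 5862 in the Cd4/Trac cells. A positive cell held 2.77 and 3.29 Foxp3 UMIs on average in the knockout-labelled and WT CD25+ libraries and at most 9 and 11. The means in the CD25− libraries were 1.65 and 1.52 (knockout-labelled, then WT), where 21 of 26 and 15 of 21 positive cells held a single UMI.

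**Figure D1:**
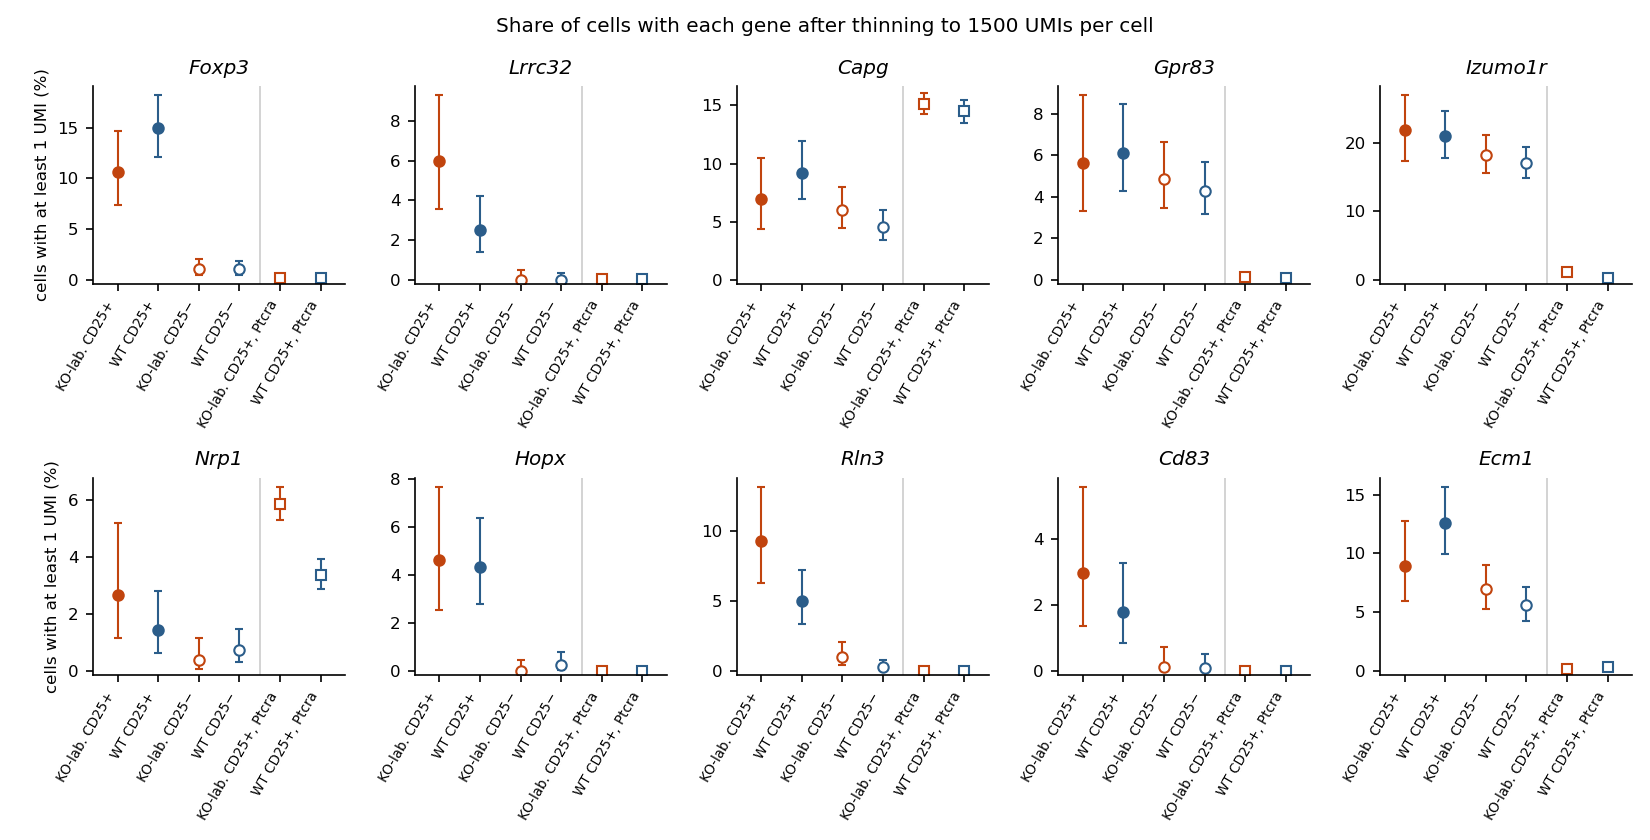
Share of cells with at least 1 UMI of each gene (y axes, %) after thinning to 1500 UMIs, by library on the x axis, with exact 95% binomial intervals. Circles are Cd4/Trac cells, filled for CD25+ and open for CD25−, and squares right of the line are Ptcra cells of the CD25+ libraries; Foxp3, Lrrc32, Hopx, Rln3 and Cd83 stand near 0 in all but CD25+ Cd4/Trac cells, whereas Capg and Nrp1 are highest in Ptcra cells.

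Most Foxp3-positive cells of the CD25+ gate were not Cd4/Trac cells by these counts. Over all kept cells, 389 of 9236 in the knockout-labelled and 679 of 7649 in the WT CD25+ library held a Foxp3 UMI, and Cd4/Trac cells made up 15.4% and 19.9% of them. Cells with only one of Cd4 and Trac were positive at 21.1% (154 of 729) in knockout-labelled and 32.8% (311 of 949) in WT. Cells with no UMI of Cd4, Trac, Ptcra or Rag1 were still positive at 9.34% (117 of 1253) and 18.5% (196 of 1061), and 43.6% and 37.2% of those positive cells held 3 or more Foxp3 UMIs. In cells with a Ptcra or Rag1 UMI and neither Cd4 nor Trac, the shares were 0.835% (58 of 6950) and 0.728% (37 of 5079), and 53 of the 58 and 35 of the 37 positive cells held 1 UMI. Most Foxp3-positive cells of the gate thus lacked a UMI of Cd4, of Trac or of both. Positive cells with none of the 4 UMIs were shallower, with medians of 3357 and 3661.5 UMIs against 5149 and 4642 in Foxp3-positive Cd4/Trac cells (knockout-labelled, then WT).

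**Figure D2:**
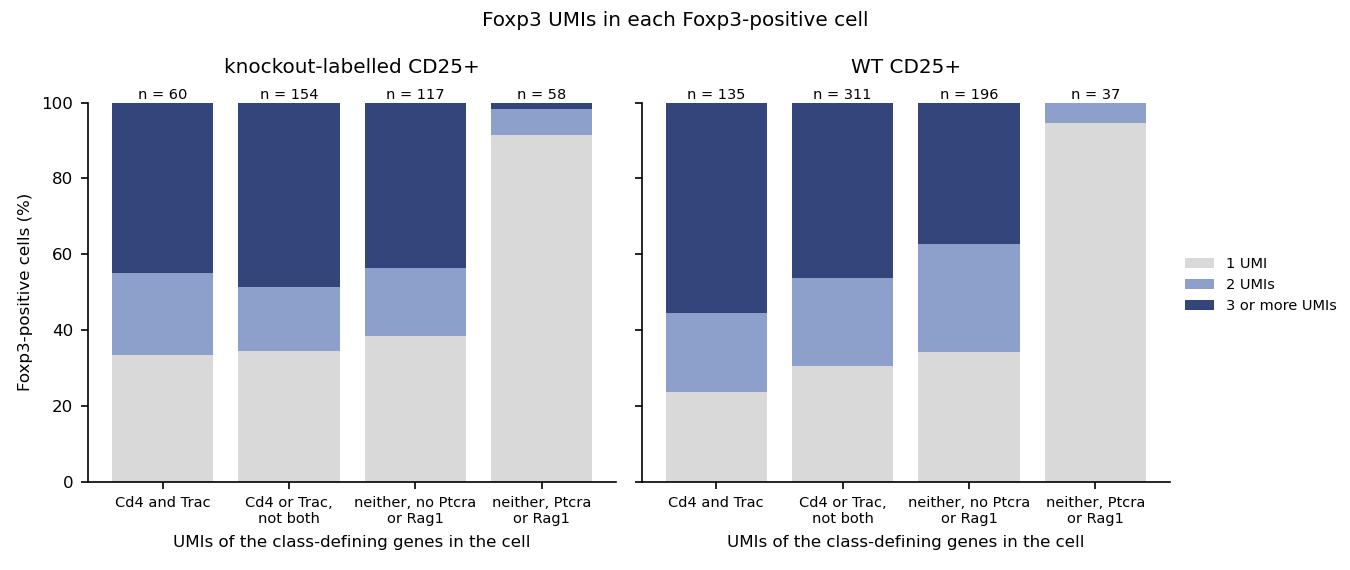
Foxp3-positive cells of the CD25+ libraries (bars, % of the positive cells of each class) divided by their number of Foxp3 UMIs, for 4 classes of cells on the x axis. Cells with Ptcra or Rag1 and neither Cd4 nor Trac are nearly all at 1 UMI, 53 of 58 in the knockout-labelled and 35 of 37 in the WT library.

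The comparison of gates asked which of the 10 genes separate CD25+ from CD25− Cd4/Trac cells. A gene was called higher or lower at 1.5-fold with at least 20 CPM in either library. A gene above that minimum in a single library could be called in that direction only. In the knockout-labelled pair, 4 of 8 genes above the minimum were higher in CD25+ cells and 0 lower, where 10.5% of 6953 genes were higher and 10.2% lower. In the WT pair, 4 of 7 were higher and 0 lower, against 7.36% higher and 4.89% lower of 6875 genes. All genes called higher in the knockout-labelled pair reached the minimum only through the CD25+ cells. So did Foxp3, Hopx and Rln3 in the WT pair, whereas Ecm1 was above it in both gates there. The median log2 ratio of the listed genes was 1.39 and 0.92 (knockout-labelled, then WT), and that of all genes was 0.00 in both. Several of the 10 genes were known from an earlier reading of this same contrast, so these counts and medians are a description.

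Foxp3 was at 67.8 CPM in knockout-labelled CD25+ cells against 7.01 CPM in knockout-labelled CD25−, 9.66-fold higher (6.87 to 13.9). In WT it was at 113 CPM in CD25+ against 4.61 CPM in CD25−, 24.6-fold higher (17.2 to 36.4). Lrrc32 (chr7:98489283-98502181, plus strand, mm10), whose product GARP holds latent TGF-β on the cell surface, was at 26.5 CPM (65 UMIs) in knockout-labelled CD25+ against 0.163 CPM (1 UMI) in knockout-labelled CD25− cells, a ratio of 163 (28.2 to 6525). In WT it had 64 UMIs in CD25+ cells (16.4 CPM, under the minimum for a call) and 0 UMIs in CD25− cells, at least 37.9-fold higher when 3 counts are allowed in the CD25− library. Lrrc32 transcripts were thus almost confined to the CD25+ gate among Cd4/Trac cells of these libraries. Those of Foxp3 were not, with 43 UMIs in knockout-labelled CD25− cells against 166 in CD25+, and 32 against 444 in WT.

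Hopx (chr5:77086988-77115121, minus strand), a homeodomain protein that does not bind DNA itself, was at 31.8 CPM in knockout-labelled CD25+ against 1.79 CPM in knockout-labelled CD25− cells (17.8-fold, 9.40 to 37.0). It was at 32.7 CPM in WT CD25+ against 3.02 CPM in WT CD25− cells (10.8-fold, 6.78 to 18.1). Rln3 (chr8:84042929-84045000, minus strand), the peptide hormone relaxin-3, was at 66.6 CPM in knockout-labelled CD25+ against 5.55 CPM in knockout-labelled CD25− cells (12.0-fold, 8.25 to 17.9), and at 62.4 CPM in WT CD25+ against 2.30 CPM in WT CD25− cells (27.1-fold, 16.3 to 48.1). Both were high in each CD25+ library and low in each CD25− library, and the ranges of the gates do not overlap. Cd83 (chr13:43784775-43803132, plus strand), a surface protein that steadies MHC class II, was at 13.9 and 16.6 CPM in knockout-labelled and WT CD25+ cells and at 0.489 and 0.576 CPM in CD25− ones (3 and 4 UMIs). Its ratios of 28.4 (8.92 to 144) and 28.8 (10.7 to 109) stand under the minimum level for a call. Nrp1 (chr8:128358604-128503363, plus strand), the semaphorin receptor neuropilin-1, was also under it, at 13.1 CPM in knockout-labelled CD25+ against 2.12 CPM in knockout-labelled CD25− (6.16-fold, 3.15 to 12.8) and at 9.97 against 5.62 CPM in WT (1.77-fold, 1.11 to 2.84).

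The remaining 4 genes did not mark the CD25+ gate in the same way. Ecm1 (chr3:95734147-95739569, minus strand), a secreted glycoprotein, was called in WT, at 79.5 CPM in CD25+ against 39.7 CPM in CD25− (2.00-fold, 1.69 to 2.36), but not in the knockout-labelled pair, at 54.7 against 42.4 CPM (1.29-fold, 1.04 to 1.60). Capg (chr6:72544391-72562983, plus strand), which caps actin filaments, was at 44.5 CPM in both knockout-labelled gates and at 59.0 against 42.6 CPM in WT CD25+ and CD25− (1.38-fold, 1.16 to 1.65). Gpr83 (chr9:14860210-14870789, plus strand), a G protein-coupled receptor, was at 38.0 CPM in both knockout-labelled gates and at 37.8 against 35.3 CPM in the WT ones. Izumo1r (chr9:14885814-14903949, minus strand), the folate receptor family member also called FR4, was at 181 CPM in both CD25+ libraries, against 197 CPM in knockout-labelled CD25− and 192 CPM in WT CD25−. For Gpr83 and Izumo1r the interval of the ratio lay between 0.777 and 1.32 in both pairs, so any gate difference beyond 1.5-fold is outside the counting error. In the Cd4-or-Trac cells, 6 of 8 genes were higher in the knockout-labelled pair (background 13.1%) and 8 of 9 in the WT pair (7.81%), with Capg at 1.54 and 2.00 and Ecm1 at 1.79 and 2.70. Gpr83 was called there in WT alone, at 62.7 CPM in CD25+ against 33.8 CPM in CD25− (1.86-fold, 1.53 to 2.27), so its lack of a gate difference did not extend to those WT cells. Izumo1r was called in neither pair, at 1.15 (1.04 to 1.27) and 1.2 (1.09 to 1.32).

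**Figure D3:**
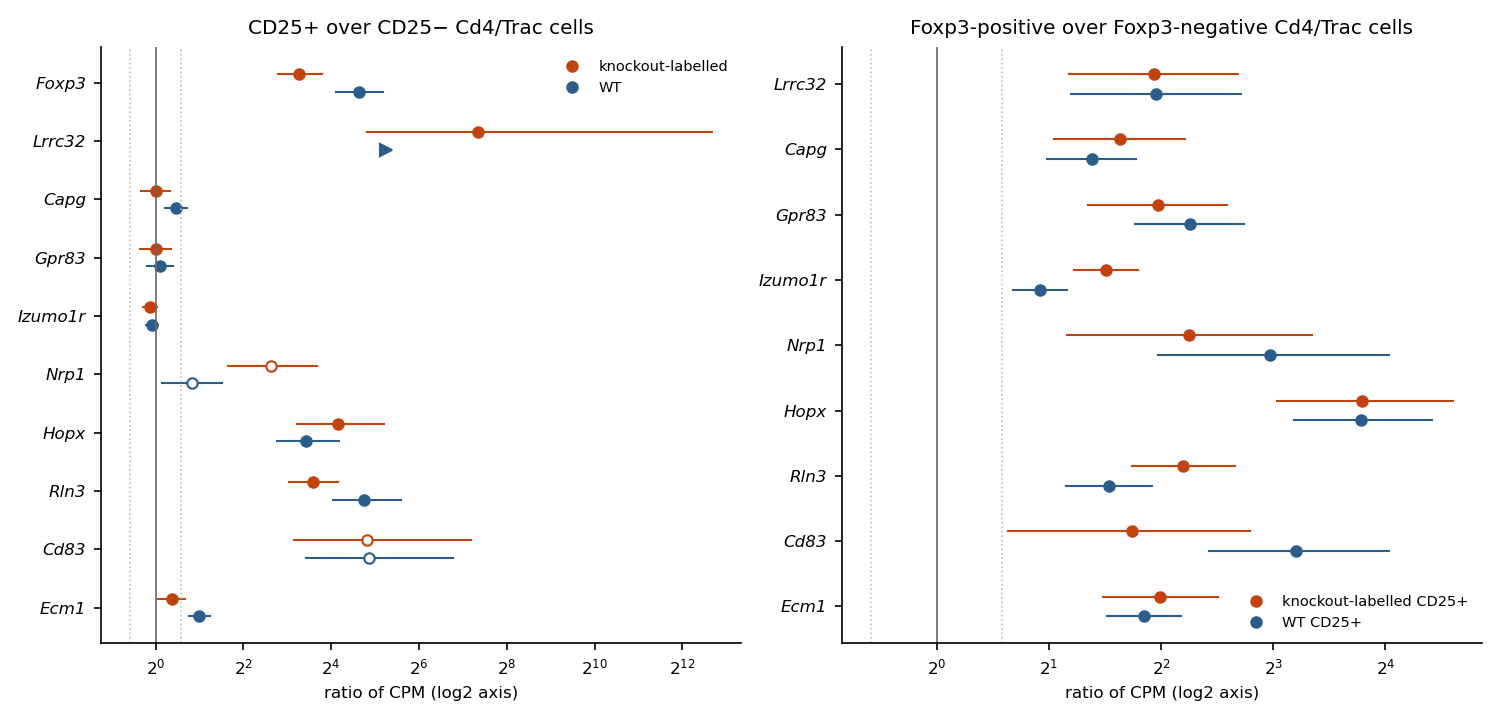
Ratio of CPM (log2 axes) with exact conditional 95% intervals for CD25+ over CD25− Cd4/Trac cells, left, and for Foxp3-positive over Foxp3-negative Cd4/Trac cells of the CD25+ libraries, right. Dotted lines mark 1.5-fold, open circles are genes under the minimum of 20 CPM and the triangle is a lower bound; Capg, Gpr83 and Izumo1r stay within 1.5-fold between gates but are 1.90-fold to 4.77-fold higher in Foxp3-positive cells.

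Against Ptcra cells of the same library, 7 of 9 genes above the minimum were higher in knockout-labelled CD25+ Cd4/Trac cells and 2 lower, where 14.1% of all genes were higher and 19.3% lower. In WT, 6 of 8 were higher and 2 lower, against 15.4% and 20.8%. Both times the lower genes were Capg and Nrp1. Capg was at 44.5 CPM in knockout-labelled Cd4/Trac cells against 97.8 CPM in Ptcra cells (0.455-fold, 0.373 to 0.550), and at 59.0 against 98.1 CPM in WT (0.602-fold, 0.524 to 0.688). In WT Cd4-or-Trac cells Capg was at 68.4 CPM against the 98.1 CPM of Ptcra cells (0.697-fold, 0.616 to 0.786), which is not a call. Nrp1 was at 13.1 CPM in knockout-labelled Cd4/Trac cells against 39.7 CPM in Ptcra cells, and at 9.97 against 26.0 CPM in WT. The thinned share of Nrp1-positive cells was 2.66% in knockout-labelled Cd4/Trac cells against 5.86% in Ptcra cells, so over the whole CD25+ gate neither gene singles out Foxp3-positive cells. The other 8 genes were at 7.27 CPM or less in Ptcra cells of both libraries, and Cd83 had 2 and 0 UMIs over 6644 knockout-labelled and 4825 WT cells. These 8 could therefore be called only higher here, and Nrp1, under the minimum in Cd4/Trac cells, only lower.

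The comparison of Foxp3-positive with Foxp3-negative cells within a CD25+ library asked how far the other 9 genes share cells with Foxp3. All 9 reached the minimum and all 9 were higher in Foxp3-positive cells, in the knockout-labelled library (background 11.7% higher and 22.7% lower) and in the WT one (11.1% and 17.9%). Lrrc32, Nrp1, Hopx and Cd83 reached it only through the Foxp3-positive cells in both libraries, so they could not have been called lower. Capg, Gpr83, Izumo1r, Rln3 and Ecm1 were above it in both classes of cells. The median log2 ratio of the 9 was 1.73 in knockout-labelled and 1.76 in WT, beside -0.14 and -0.08 over all genes. Hopx had the widest difference, at 137 CPM in Foxp3-positive against 9.88 CPM in Foxp3-negative knockout-labelled cells (13.8-fold, 8.19 to 24.3) and at 134 against 9.72 CPM in WT (13.8-fold, 9.10 to 21.4). Foxp3-positive cells were the shallower ones, with median depths of 5149 UMIs in knockout-labelled and 4642 in WT against 6942 and 6416 in Foxp3-negative cells.

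Gpr83 and Izumo1r, which did not separate the gates, were both called higher in Foxp3-positive cells. Gpr83 was at 98.9 CPM in Foxp3-positive against 25.2 CPM in Foxp3-negative knockout-labelled cells (3.92-fold, 2.55 to 6.02), and at 106 against 22.3 CPM in WT (4.77-fold, 3.41 to 6.68). Izumo1r was at 391 CPM in Foxp3-positive against 137 CPM in Foxp3-negative knockout-labelled cells (2.85-fold, 2.33 to 3.46), and at 294 against 155 CPM in WT (1.90-fold, 1.61 to 2.23). In Foxp3-negative cells alone, Gpr83 was called lower in the CD25+ gate, while Izumo1r stayed short of 1.5-fold. Gpr83 was at 25.2 CPM in knockout-labelled CD25+ Foxp3-negative cells against 38.5 CPM in CD25− ones (0.654-fold, 0.473 to 0.889) and at 22.3 against 35.6 CPM in WT (0.625-fold, 0.473 to 0.818). Izumo1r ratios were 0.699 (0.611 to 0.797) in knockout-labelled and 0.8 (0.720 to 0.887) in WT. Among Foxp3-negative Cd4-or-Trac cells, Gpr83 was at 0.517 (0.390 to 0.679) in knockout-labelled, again lower, and at 0.889 (0.675 to 1.16) in WT, which was not called. Among Foxp3-negative cells, 1 of 5 genes was higher in CD25+ and 1 lower in each genotype label (background 13.4% higher and 11.9% lower in knockout-labelled, 9.08% and 6.33% in WT). The lower one was Gpr83 and the higher one Rln3, at 41.0 against 5.53 CPM in knockout-labelled (7.41-fold, 4.90 to 11.5) and at 46.1 against 2.20 CPM in WT (21.0-fold, 12.3 to 38.4). Rln3 reached the minimum only through the CD25+ cells. Rln3 transcripts were thus in CD25+ cells both with and without a Foxp3 UMI.

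Rln3 in turn was at 188 CPM in Foxp3-positive knockout-labelled cells against 41.0 CPM in Foxp3-negative ones (4.59-fold, 3.34 to 6.32) and at 134 against 46.1 CPM in WT (2.90-fold, 2.22 to 3.78). Ecm1 was at 144 against 36.1 CPM (3.98-fold, 2.79 to 5.67) in knockout-labelled and at 193 against 53.6 CPM in WT (3.60-fold, 2.86 to 4.53). Capg was at 101 against 32.6 CPM in knockout-labelled (3.11-fold, 2.06 to 4.63) and at 119 against 45.5 CPM in WT (2.61-fold, 1.97 to 3.43). In these 3 genes the ratio of the knockout-labelled library lay above that of WT, with overlapping intervals for Ecm1 and Capg and also for Rln3. Lrrc32 was at 68.3 against 17.8 CPM in knockout-labelled (3.84-fold, 2.27 to 6.44) and at 41.4 against 10.7 CPM in WT (3.88-fold, 2.30 to 6.54). More than 50% of its UMIs nevertheless came from Foxp3-negative cells, 36 of 65 in knockout-labelled and 34 of 64 in WT. Nrp1 had ratios of 4.77 (2.23 to 10.2) in knockout-labelled and 7.86 (3.93 to 16.4) in WT, and Cd83 had 3.34 (1.56 to 6.95) in knockout-labelled and 9.22 (5.37 to 16.3) in WT, each on 14 to 44 UMIs in Foxp3-positive cells. When both the Foxp3 call and the levels were taken after thinning, 6 of the 9 were higher in the knockout-labelled library (background 30.8%) with 32 positive cells left. The 3 calls that ended there were those of Lrrc32, at 41.7 against 42.1 CPM (0.989-fold), Gpr83, at 62.5 against 44.6 CPM (1.40-fold), and Nrp1, at 20.8 against 17.3 CPM (1.2-fold). All 9 were higher in WT (background 20.7%).

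The Cd4-or-Trac cells gave the same directions, with 8 of 8 genes above the minimum higher in the knockout-labelled library (background 15.8%) and 9 of 9 in WT (9.41%). Lrrc32, Nrp1, Hopx and, in WT, Cd83 again reached the minimum only through Foxp3-positive cells. There Hopx ratios were 8.65 and 5.54 and Gpr83 ratios 5.15 and 4.45 (knockout-labelled, then WT). Counted per cell after thinning, Foxp3-positive Cd4/Trac cells held on average 1.68 of the other 9 genes in knockout-labelled and 1.29 in WT, against 0.444 and 0.438 in Foxp3-negative cells. At least 2 of the 9 were found in 53.3% of Foxp3-positive knockout-labelled cells (40.0 to 66.3) and 33.8% of WT ones (25.9 to 42.5), against 8.71% and 6.40% of Foxp3-negative cells. Among Foxp3-positive cells 11 of 60 in knockout-labelled and 31 of 133 in WT held none of the 9 at this depth. Izumo1r was found most often, in 46.7% and 36.8% of Foxp3-positive and 15.8% and 16.1% of Foxp3-negative cells (knockout-labelled, then WT). Each other gene was in 3.76% (Nrp1, WT) to 25.0% (Ecm1, knockout-labelled) of Foxp3-positive cells. Co-detection was therefore partial at 1500 UMIs and, gene by gene, confined to a minority of Foxp3-positive cells.

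Other marker lists differed between Foxp3-positive and Foxp3-negative cells as well. The list of 5 genes of recirculating or mature regulatory T cells summed to 749 CPM in knockout-labelled and 1067 CPM in WT Foxp3-positive cells, against 263 and 475 CPM in Foxp3-negative cells, mostly from Klf2, with Il1r2 at 0 in knockout-labelled Foxp3-positive and WT Foxp3-negative cells. Its part in the result was not tested. Of 11 markers of dendritic cells and macrophages, which also transcribe Capg, Nrp1 and Cd83, 3 were detected in knockout-labelled and 4 in WT Foxp3-positive cells. H2-Aa, H2-Eb1, Itgax, Lyz2, Fcer1g and Siglech were at 0 in both, and the list summed to 165 and 204 CPM there against 303 and 271 CPM in Foxp3-negative cells. The same 6 genes were at 0 in Foxp3-negative cells, and Cst3 led the list in all 4 classes, so its sum says little of those cells. The B cell list of 5 genes summed to 108 CPM in knockout-labelled and 82.8 CPM in WT Foxp3-positive cells, against 28.2 and 32.0 CPM in Foxp3-negative cells. Most of that was Ighm, at 98.9 and 70.4 CPM against 21.2 and 29.5 CPM, and Ms4a1 was at 0 in all 4 classes. Gm42418 was at 4986.5 and 6908 CPM in Foxp3-positive against 4295 and 5218 CPM in Foxp3-negative cells (knockout-labelled, then WT). The part of these lists and of Gm42418 in the result was not tested.

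Cells were also split by the T cell receptor response, defined as at least 2 UMIs over the 5 genes Nr4a1, Nr4a3, Egr1, Egr2 and Egr3. Such a response was found in 13 of 60 Foxp3-positive and 117 of 244 Foxp3-negative knockout-labelled CD25+ cells, and in 26 of 135 and 158 of 425 in WT. Cd83 stood out among the Foxp3-positive cells. It was at 75.9 CPM in Foxp3-positive knockout-labelled cells with a response against 16.3 CPM in those without (4.65-fold, 1.40 to 17.7, from 9 and 5 UMIs), and at 143 against 34.5 CPM in WT (4.15-fold, 2.20 to 7.98, from 25 UMIs in 4 cells and 19 UMIs in 11). Hopx, by contrast, was at 127 CPM in Foxp3-positive cells with a response against 140 CPM in those without in knockout-labelled, and at 120 against 138 CPM in WT, with intervals that include no difference. Rln3 was at 40.2 CPM in WT Foxp3-positive cells with a response against 164 CPM in those without (0.246-fold, 0.0960 to 0.527) and at 143 against 206 CPM in knockout-labelled (0.697-fold, 0.382 to 1.21).

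The difference between Foxp3-positive and Foxp3-negative cells was also there among cells without a response. The ratios were 9.58 and 14.9 for Hopx, 12.0 and 5.81 for Lrrc32, 6.34 and 3.03 for Rln3, and 2.32 and 1.99 for Izumo1r (knockout-labelled, then WT). All 9 genes were at or above 1.99 in both libraries there. Among cells with a response, Lrrc32 was at 0.622 (0.0719 to 2.46) in knockout-labelled and 2.50 (0.892 to 6.14) in WT, and Rln3 at 2.95 (1.60 to 5.18) in knockout-labelled and 1.19 (0.450 to 2.67) in WT. The intervals of Lrrc32 in both libraries and of Rln3 in WT include no difference there, and those of the other 7 genes lay above 1 in both.

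Among Foxp3-negative cells Lrrc32 was higher with the response. It was at 27.1 CPM in responding knockout-labelled cells against 7.33 CPM in the others (3.70-fold, 1.59 to 10.0) and at 16.1 against 7.20 CPM in WT (2.24-fold, 1.07 to 4.79), the WT levels being under the minimum. In Foxp3-positive cells it was at 16.9 CPM with a response against 88.2 CPM without in knockout-labelled (0.191-fold, 0.0220 to 0.761, from 2 and 27 UMIs), and at 40.2 against 41.8 CPM in WT (0.961-fold, 0.348 to 2.31). Capg was lower in responding Foxp3-negative cells of both libraries, at 18.7 against 48.2 CPM in knockout-labelled (0.388-fold, 0.218 to 0.670) and at 33.8 against 52.9 CPM in WT (0.638-fold, 0.435 to 0.922). Cd83, under the minimum in both, was at 17.8 against 1.05 CPM in knockout-labelled (17.0-fold, 2.70 to 705, from 19 and 1 UMIs). In WT Cd83 was at 3.22 against 8.74 CPM (0.368-fold, 0.0902 to 1.13), with an interval that includes no difference. These levels came from 4 UMIs in 3 of 158 responding cells and 17 UMIs in 4 of 267 others. The share of Cd83-positive cells was thus not lower with a response in WT. Over the listed genes, 1 was higher and 4 were lower in responding knockout-labelled cells (background 7.96% and 10.3%), and 0 were higher and 2 lower in WT (6.54% and 5.17%). Besides Capg the lower ones were Gpr83 (0.275), Izumo1r (0.526) and Ecm1 (0.465) in knockout-labelled and Rln3 (0.626) in WT. By share of cells WT Rln3 was not lower, with 42 UMIs in 21 of 158 responding cells (13.3%) and 105 UMIs in 26 of 267 others (9.74%). Gpr83, Izumo1r and Ecm1 were at 0.961, 0.937 and 1.19 in WT, and the difference between the libraries was not tested. In Foxp3-negative cells of the CD25− gate, Gpr83 and Izumo1r were on the other side, at 1.96 (1.49 to 2.57) and 2.27 (2.02 to 2.55) in knockout-labelled and at 1.55 (1.17 to 2.05) and 1.48 (1.31 to 1.66) in WT. Responding Foxp3-negative cells were deeper, with medians of 7975 and 7090.5 UMIs against 6406 and 6097 in the others (knockout-labelled, then WT).

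**Figure D4:**
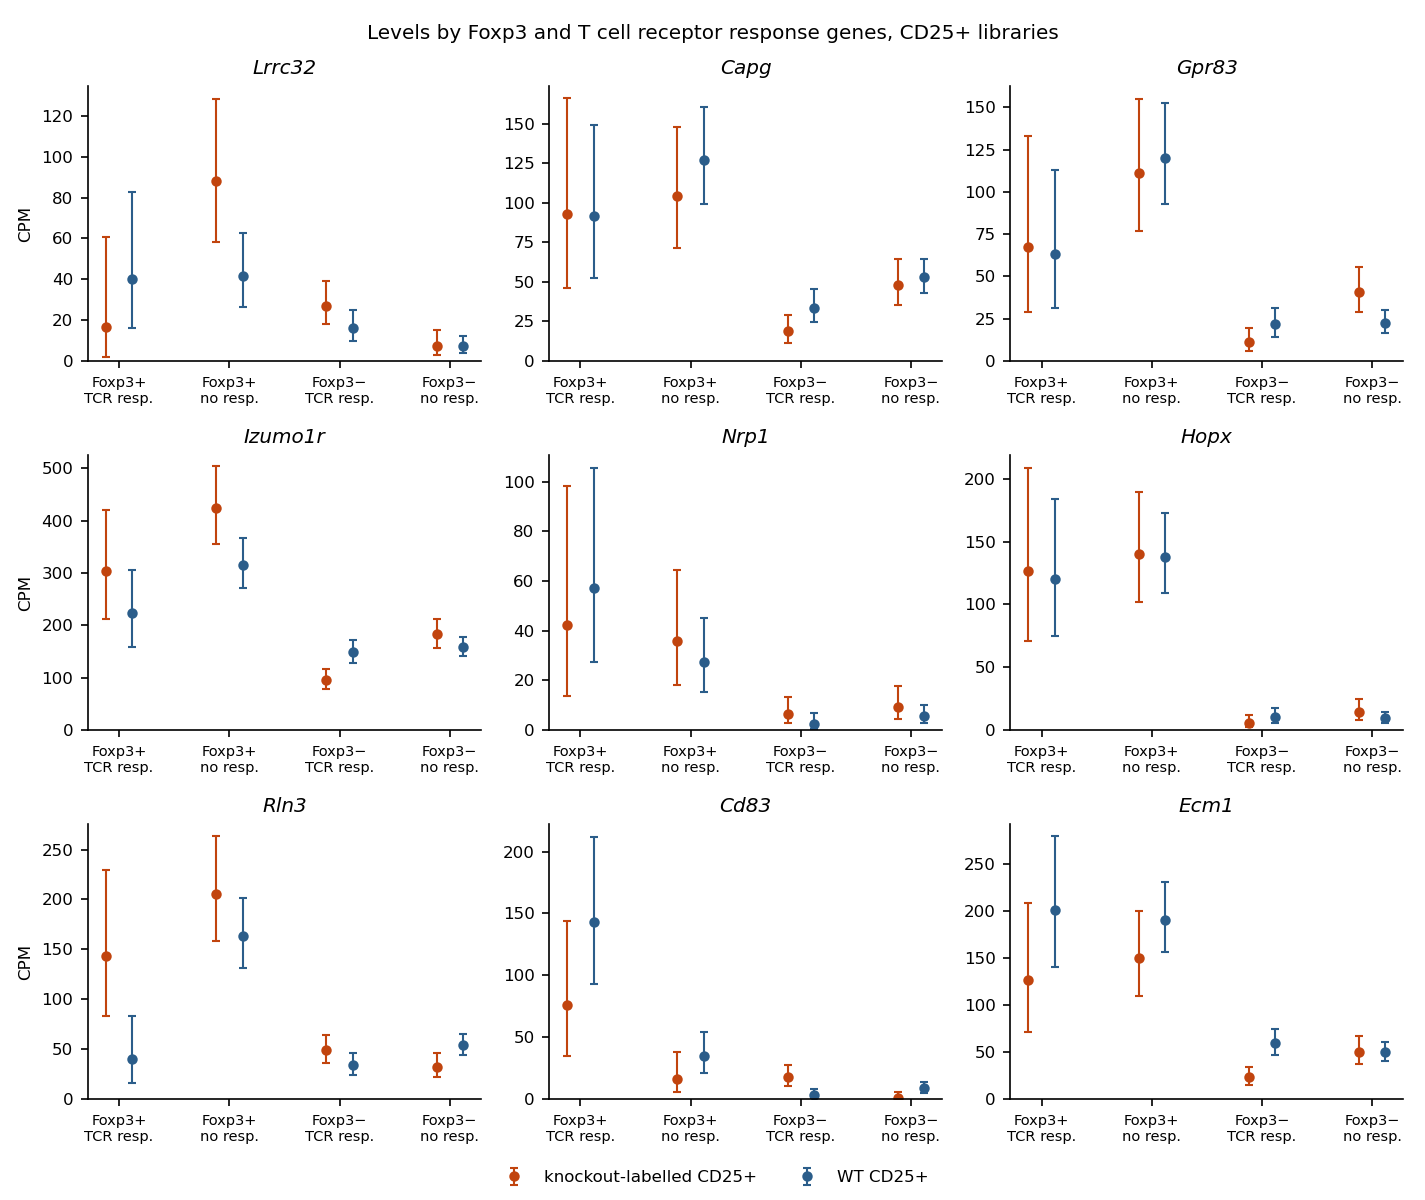
CPM of the 9 genes other than Foxp3 (y axes, exact 95% Poisson intervals) in CD25+ Cd4/Trac cells divided on the x axis by a Foxp3 UMI and by at least 2 UMIs of the T cell receptor response genes. Hopx, Gpr83 and Ecm1 go with Foxp3 in either kind of cell, whereas Cd83 is highest in Foxp3-positive cells with a response, at 75.9 and 143 CPM.

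Genotype labels were compared within each gate. In CD25+ Cd4/Trac cells, 1 of 8 genes above the minimum was higher and 1 lower in the knockout-labelled library, where 2.93% of 6824 genes were higher and 3.39% lower. The lower one was Foxp3, at 67.8 CPM (57.9 to 78.9) in knockout-labelled against 113 CPM (103 to 125) in WT, a ratio of 0.597 (0.497 to 0.716). In Cd4-or-Trac cells Foxp3 was at 124 against 210 CPM, a ratio of 0.588 (0.522 to 0.663). The knockout-labelled CD25+ library thus held less Foxp3 in separate cells of both classes, which are still 1 library against 1 library. The share of Foxp3-positive cells after thinning differed by -4.32 percentage points (-8.72 to 0.51) between knockout-labelled and WT Cd4/Trac cells, an interval that includes 0. Other classes differed more without thinning. Cells with Cd4 or Trac but not both were positive at 21.1% (18.2 to 24.3) in knockout-labelled and 32.8% (29.8 to 35.9) in WT. Cells without Cd4, Trac, Ptcra and Rag1 UMIs were at 9.34% (7.78 to 11.1) and 18.5% (16.2 to 20.9). Leaving out Cd4/Trac cells with a Ptcra or Rag1 UMI bears on the Foxp3 ratio, because Ptcra was at 29.8 CPM in knockout-labelled against 2.56 CPM in WT Cd4/Trac cells. Foxp3 was then at 70.8 against 113 CPM, a ratio of 0.628.

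Whether a Foxp3-positive cell itself held less Foxp3 depended on the class of cells. In Foxp3-positive Cd4/Trac cells it was at 391 CPM in knockout-labelled against 613 CPM in WT (0.638-fold, 0.530 to 0.764), but in Foxp3-positive Cd4-or-Trac cells at 606 against 641 CPM (0.945-fold, 0.838 to 1.06). The call itself selects these cells on Foxp3, so the values are a description. In the same Cd4-or-Trac cells Rln3 was at 202 CPM in knockout-labelled against 106 CPM in WT (1.91-fold, 1.5 to 2.43) and Izumo1r at 586 against 363 CPM (1.61-fold, 1.41 to 1.84), the 2 genes called higher of 9 (background 7.01% higher and 8.19% lower).

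The gene called higher was Lrrc32, at 26.5 CPM in knockout-labelled against 16.4 CPM in WT CD25+ Cd4/Trac cells (1.62-fold, 1.13 to 2.33). The ratio ran between 1.02 and 1.88 under 10 alternatives, and the call held in 6 of them. It was not called in Cd4-or-Trac cells, at 31.5 against 34.8 CPM (0.906-fold, 0.697 to 1.17), so the difference did not extend to those cells. Instead Cd83 was the second gene called lower there, at 11.7 against 25.1 CPM (0.467-fold, 0.314 to 0.682), with 0 higher and 2 lower of 9 genes (background 4.92% and 3.22%). Ecm1 had a ratio of 0.688 (0.558 to 0.846) in Cd4/Trac cells and 0.780 (0.659 to 0.921) in Cd4-or-Trac cells, short of the 1.5-fold threshold in both. Izumo1r, Gpr83 and Hopx had ratios of 1.00 (0.889 to 1.13), 1.00 (0.766 to 1.31) and 0.974 (0.725 to 1.30), so that a 1.5-fold difference lay outside the counting error. Among Foxp3-positive Cd4/Trac cells, 1 of 9 genes was higher and 1 lower in knockout-labelled (background 11.5% and 16.7%), Lrrc32 at 1.65 (0.955 to 2.84) and Cd83 at 0.543 (0.275 to 1.01). Among Foxp3-negative ones 0 of 5 were called (background 3.34% and 3.86%), and likewise 0 of 5 among Foxp3-negative Cd4-or-Trac cells (background 5.16% and 4.51%).

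**Figure D5:**
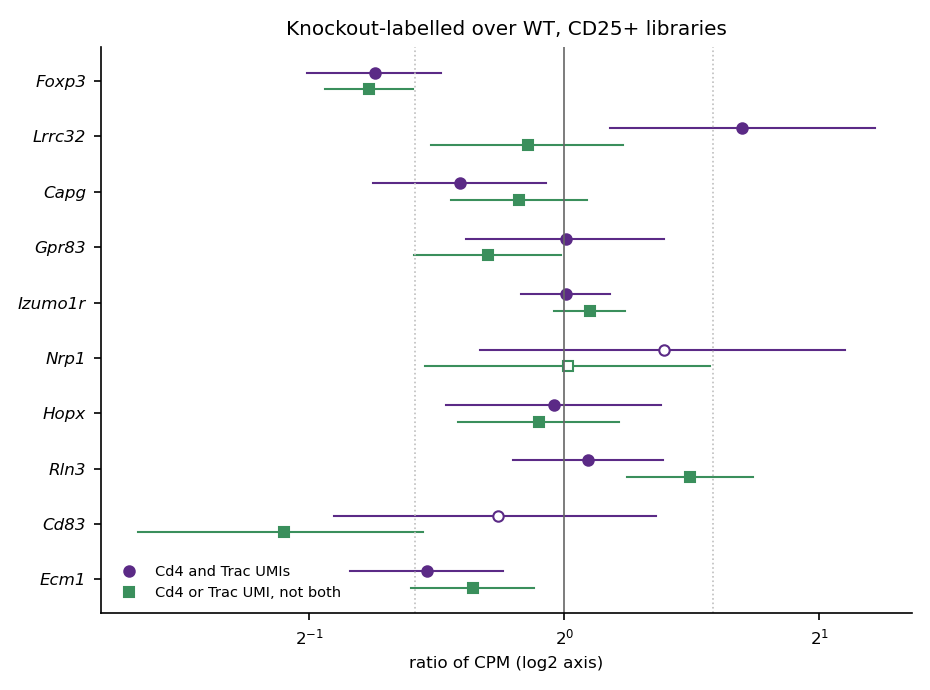
Ratio of CPM in knockout-labelled over WT CD25+ libraries (log2 axis) with exact conditional 95% intervals, for Cd4/Trac cells (circles) and Cd4-or-Trac cells (squares); open symbols are under the minimum of 20 CPM and dotted lines mark 1.5-fold. Foxp3 lies near 0.6 in both classes, while Lrrc32 lies at 1.62 in the first and at 0.906 in the second.

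In the CD25− gate, 4 of the 10 genes reached the minimum and 0 were called, against 2.45% higher and 0.843% lower of 6762 genes. Capg, Gpr83, Izumo1r and Ecm1 had ratios of 1.04, 1.08, 1.03 and 1.07 between knockout-labelled and WT cells, the widest interval running from 0.883 to 1.29. Foxp3 was at 7.01 CPM in knockout-labelled against 4.61 CPM in WT (1.52-fold, 0.941 to 2.49, from 43 and 32 UMIs), below the minimum. Nrp1 was at 2.12 against 5.62 CPM (0.378-fold, 0.185 to 0.722) and Rln3 at 5.55 against 2.30 CPM (2.41-fold, 1.29 to 4.67), also below it. Gpr83 was called higher in Cd4-or-Trac cells, at 54.6 CPM in knockout-labelled against 33.8 CPM in WT (1.62-fold, 1.32 to 1.98), 1 of 4 genes above the minimum there and 0 lower (background 1.78% higher and 2.44% lower).

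The few Foxp3-positive Cd4/Trac cells of the CD25− gate, 26 in knockout-labelled and 21 in WT, held few or no UMIs of Lrrc32, Cd83, Hopx, Rln3, Nrp1 and Gpr83. Lrrc32 and Cd83 had 0 UMIs in both, which allows up to 18.3 CPM in knockout-labelled and 24.8 CPM in WT. Hopx had 1 and 2 UMIs, Rln3 1 and 1, Nrp1 2 and 2, Gpr83 3 and 2, and Il2ra 4 and 0. Capg was at 79.2 (42.2 to 135) and 82.6 CPM (39.6 to 152), against 43.6 and 41.9 CPM in Foxp3-negative CD25− cells (knockout-labelled, then WT). Ecm1 was at 54.9 (25.1 to 104) and 90.9 CPM (45.4 to 163), against 42.1 and 38.8 CPM. Izumo1r was at 201 (138 to 282) and 82.6 CPM (39.6 to 152), against 197 and 194 CPM. After thinning they held 0.538 and 0.381 of the other 9 genes per cell, against 0.371 and 0.328 in Foxp3-negative CD25− cells, a small difference beside that seen in the CD25+ gate.

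By likeness to Foxp3, meaning the lower of the log2 ratios of CPM plus 5 in Foxp3-positive over Foxp3-negative cells of the 2 CD25+ libraries, Hopx ranked first of 1169 genes with at least 50 UMIs in the positive cells of each. It was followed by Rgs1, which shortens G protein signals, by Ctla4, an inhibitory receptor, and by Il2rb, the β chain of the IL-2 receptor. AW112010, Ecm1, Gimap3, Fam169b, Ift80 and Ctss, a lysosomal protease, completed the first 10, with lower log2 ratios of 3.24 for Hopx, 2.90 for Rgs1, 2.79 for Ctla4 and 1.56 for Ctss. In Cd4-or-Trac cells (2103 genes) the first 4 were Ctla4, Rgs1, Hopx and Il2rb, which were also the first 4 in Cd4/Trac cells, and Ly6c1 and Gpr83 followed them. Rln3 ranked 14 and 62, and Izumo1r 46 and 57, in Cd4/Trac and in Cd4-or-Trac cells. This measure picks genes by the same contrast and is a description.

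Of 20 other surface molecules, receptors and effectors of regulatory T cells, 11 reached the minimum. In CD25+ over CD25− cells 8 were higher and 0 lower in knockout-labelled and 7 higher and 1 lower in WT (median log2 ratios 1.40 and 1.63, against 0.00 over all genes). Over all genes 10.5% were higher and 10.2% lower in knockout-labelled and 7.36% and 4.89% in WT. These counts and medians include Il2ra, higher in both pairs, whose call was fixed in advance by the sort on CD25. The TNF receptor family members Tnfrsf4, Tnfrsf9 and Tnfrsf18 were among the higher ones in both, Tnfrsf9 at 484 against 56.8 CPM in knockout-labelled (8.53-fold) and at 371 against 26.9 CPM in WT (13.8-fold). In Foxp3-positive over Foxp3-negative cells 4 were higher and 5 lower in knockout-labelled (background 11.7% and 22.7%), and 5 higher and 3 lower in WT (11.1% and 17.9%). Ctla4 was at 214 against 26.7 CPM in knockout-labelled (8.03-fold, 5.67 to 11.5) and at 348 against 34.5 CPM in WT (10.1-fold, 8.03 to 12.7). Ccr8, a chemokine receptor, was at 40.0 against 163 CPM (0.246-fold) and at 44.2 against 128 CPM (0.345-fold), so not every gene known from regulatory T cells went with the Foxp3 UMI here. Between genotype labels in the CD25+ gate, 0 of 11 were higher and 1 was lower (background 2.93% and 3.39%). The lower one was Ctla4, at 59.2 CPM in knockout-labelled against 92.5 CPM in WT (0.640-fold, 0.524 to 0.778). In Cd4-or-Trac cells 0 of 11 were higher and 0 lower (background 4.92% and 3.22%), so the Ctla4 call did not extend to those cells.

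Of 23 regulators and partners of Foxp3, 22 reached the minimum in knockout-labelled and 21 in WT. In CD25+ over CD25− cells 7 were higher and 3 lower in knockout-labelled (background 10.5% and 10.2%), and 7 higher and 1 lower in WT (7.36% and 4.89%), so the lower counts were near the share of all genes. Ikzf2, which encodes Helios, was at 666 against 80.9 CPM in knockout-labelled (8.23-fold, 7.44 to 9.12) and at 605 against 48.5 CPM in WT (12.5-fold, 11.1 to 14). With Foxp3 in the cell, 5 were higher and 8 lower in knockout-labelled (background 11.7% and 22.7%), and 9 higher and 3 lower in WT (11.1% and 17.9%). Ikzf4, which encodes Eos, was among the higher ones in both (3.95-fold and 2.93-fold), and the T cell receptor response genes Nr4a1 and Nr4a3 among the lower ones, Nr4a1 at 146 against 471 CPM in knockout-labelled and at 145 against 319 CPM in WT. Ikzf2 was not called in knockout-labelled, at 591 against 681 CPM (0.867-fold), and was higher in WT, at 898 against 538 CPM (1.67-fold). Between genotype labels in the CD25+ gate 1 of 22 was higher and 0 lower (background 2.93% and 3.39%), a count near the share of all genes. The gene called was Nr4a2, at 56.8 CPM in knockout-labelled against 15.6 CPM in WT (3.64-fold, 2.68 to 5.0).

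Gpr83 and Izumo1r are neighbours on chromosome 9, 15024 bases apart on opposite strands. After thinning, Izumo1r was found in 6 of 17 Gpr83-positive knockout-labelled CD25+ cells (35.3%), against 21.1% of Gpr83-negative ones, and in 18 of 34 Gpr83-positive WT CD25+ cells (52.9%), against 19.0%. In the CD25− gate the shares were 45.9% (17 of 37) against 16.9% in knockout-labelled and 28.3% (13 of 46) against 16.6% in WT. The pair was singled out after its values were seen. It was not particular in knockout-labelled CD25+ cells, where Izumo1r was found in 53.1% of Foxp3-positive, 44.4% of Ecm1-positive, 42.9% of Hopx-positive and 38.9% of Lrrc32-positive cells. In WT CD25+ cells the share in Gpr83-positive cells was the highest for any of the other 9 genes. It was followed there by 41.0% of Foxp3-positive and 37.5% of both Hopx-positive and Nrp1-positive cells.

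Some of the counted transcripts share sequence with other genes. Foxp3 (chromosome X, 7573644 to 7595245, plus strand, mm10) shares 853 exonic bases with Flicr, a noncoding gene on the same strand, and 590 and 266 exonic bases with Ccdc22 and Ppp1r3f on the other strand. The sources used here do not say how the counting used strand, so reads in the shared bases may have been divided between them or dropped. Flicr was at 30.6 CPM in knockout-labelled and 34.5 CPM in WT Foxp3-positive CD25+ cells, against 1.48 and 0.941 CPM in Foxp3-negative ones, so it went with Foxp3 in both libraries. Ccdc22 was at 28.3 and 35.9 CPM in Foxp3-positive against 21.2 and 33.2 CPM in Foxp3-negative CD25+ cells (knockout-labelled, then WT). In the CD25− gate it was at 79.2 and 116 CPM in the 26 and 21 Foxp3-positive cells against 30.8 and 27.6 CPM in Foxp3-negative ones, so those few cells were also the ones with more Ccdc22, and its part in their Foxp3 UMIs was not tested. Hopx shares 412 exonic bases with Hopxos on the other strand, which had 6 and 1 UMIs in knockout-labelled and WT CD25+ Cd4/Trac cells, far fewer than the 78 and 128 of Hopx.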

How the data were processed

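Single-cell libraries were deposited by the authors as matrices of raw UMI counts per gene and barcode. The submitters' processing notes name Cell Ranger 6.2.1 and mm10, whereas version 6.1.2 stands in the headers of the matrices. For the annotation of genes, the use of strand and the calling of cells, nothing is stated in the sources used here.

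Barcodes with at least 500 genes and under 10% mitochondrial UMIs were kept, and those scored by Scrublet (scanpy 1.11.5) as doublets, at a rate of 0.8% per 1000 barcodes, were removed. Kept cells numbered 9236, 7649, 1716 and 2985 in knockout-labelled CD25+, WT CD25+, knockout-labelled CD25− and WT CD25−, with medians of 5961.5, 5808, 6299 and 4497 UMIs. Under 500 genes were 1.38%, 1.59%, 42.9% and 34.3% of barcodes. CPM values are the UMIs of a gene in all cells of a class over that class's total, and a call needed 1.5-fold with at least 20 CPM in either group. Shares were taken after thinning each cell to 1500 UMIs. Intervals are exact Poisson (levels), exact binomial (shares), exact conditional binomial (ratios) and Newcombe (differences of shares). A count of 0 was bounded at 3 counts. Steps were run in Python 3.11.15 with numpy 2.4.6, scipy 1.17.1, pandas 2.3.3 and matplotlib 3.10.9 and were tested on simulated data.

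The 10 genes, the lists and the classes were chosen with earlier results of these data known. The 10 were always reported, the genes most like Foxp3 were the first 10 by the lower log2 ratio (not all are reported here), and list genes could be named when 1.5-fold apart. Alternatives covered the filters on cells, the definitions of the classes, thinning, the CPM denominator, the weighting of cells, the fold and the CPM minimum.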

Additional observations from a re-analysis of the deposited data

Results flagged for a closer look

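In 3 genes the ratio of knockout-labelled to WT Cd4/Trac cells lay on opposite sides of 1 in the 2 gates with intervals that did not overlap. Foxp3 had a ratio of 0.597 (0.497 to 0.716) in CD25+ and 1.52 (0.941 to 2.49) in CD25−, where it had 43 UMIs in the knockout-labelled and 32 in the WT library. Nrp1 had 1.31 (0.795 to 2.15) in CD25+ and 0.378 (0.185 to 0.722) in CD25−, from 13 and 39 UMIs there. Ecm1 had 0.688 (0.558 to 0.846) in CD25+ and 1.07 (0.897 to 1.27) in CD25−. Capg was also on opposite sides of 1, at 0.754 (0.595 to 0.951) in CD25+ and 1.04 (0.883 to 1.24) in CD25−, with overlapping intervals. With 1 library per group, none of these differences between gates was tested.

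Cells of the CD25+ gate without a UMI of Cd4, Trac, Ptcra or Rag1 are in none of the classes compared between gates or genotype labels. A larger share of them held Foxp3 than of cells with a Ptcra or Rag1 UMI and neither Cd4 nor Trac. The share was 9.34% in the knockout-labelled library (7.78 to 11.1) and 18.5% in WT (16.2 to 20.9), against 0.835% and 0.728%, in counts without thinning.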

How the results depend on the processing

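No paired analysis was possible because each group is 1 library and the labels give no replicate numbers. Of 208 values for the shares and counts of genes called (main settings left out), 184 stayed within their limits and 24 moved. Foxp3 shares (main values 10.6%, 15.0%, 1.05% and 1.03% in knockout-labelled CD25+, WT CD25+, knockout-labelled CD25− and WT CD25−) were 19.7%, 24.1%, 3.40% and 1.91% without thinning, and 16.4%, 18.3% and 2.20% in the first 3 at 3000 UMIs. With at least 2 Foxp3 UMIs and no thinning, WT CD25+ was at 18.4%, below its 24.1% without thinning. It was at 18.9% with at least 1 UMI over Cd4 and Trac together. With that sum and no Ptcra or Rag1 UMI, a setting chosen after seeing the data, the share was 15.1% in knockout-labelled and 20.6% in WT CD25+. Between labels in CD25+ cells, the 1 gene higher (Lrrc32) became 0 with doublets kept, with either version of the sum and at 2-fold. The 1 gene lower (Foxp3) became 2 with the sum and no Ptcra or Rag1 UMI and 0 at 2-fold. Its ratio stayed at 0.554 to 0.629 under all 10 alternatives. Without a CPM minimum, 3 genes were higher and 2 lower between labels in CD25−, against 0 and 0. The 4 genes higher in the WT gate comparison became 7 without that minimum and with the sum and no Ptcra or Rag1 UMI. The 2 genes lower than in WT Ptcra cells became 1 with the sum, at 2-fold and without cells holding 3 or more UMIs of the dendritic cell and macrophage list, also chosen after seeing the data. Lrrc32 in knockout-labelled Foxp3-positive over Foxp3-negative cells reversed to 0.989 (main value 3.84) when the Foxp3 call and levels were taken after thinning. Of 714 values for single genes, 641 stayed within their limits, 72 moved and 1, that of Lrrc32, reversed. The cause was not tested in any of these. Depth limits Lrrc32, Cd83, Hopx, Rln3 and Nrp1 in CD25− cells, which had 0 to 39 UMIs there per library.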
